A study of Mus musculus with 18 samples.

Results

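A set of 10 genes of the BCL2 family, which encodes the regulators of mitochondrial apoptosis, was followed across 6 groups of mouse bone marrow-derived macrophages (BMDMs). The genes were Bcl2, Bcl2l1, Mcl1, Bcl2a1a, Bcl2a1b and Bcl2a1d, which favour survival, the BH3-only genes Bcl2l11, Bmf and Bid, and the effector gene Bak1. They were chosen by name, as 10 of the 22852 gene symbols in the count files, and the family genes Bax, Bbc3 and Pmaip1, known as direct p53 targets, were left aside. All 10 had counts and all 10 passed the filter on low counts that left 11305 genes for testing.

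The macrophages were grown from the marrow of female C57BL/6 mice in L929-conditioned medium, and messenger RNA was sequenced from 3 biological replicates in each of 6 groups, 18 samples in all. Whether the replicates came from separate mice was not stated, so the p-values measure the spread between these samples, which may in part be technical. Unstim cells received no LPS. LPS100 cells (LPS-primed) were exposed to Salmonella LPS at 100 ng/ml for 24 h, and Tol cells (LPS-tolerant) received the same priming followed by fresh medium with LPS at 10 ng/ml for 3 h. LPS10Control cells received a single exposure to 10 ng/ml for 3 h without priming. LPS100-Carbo25 and Tol-Carbo25 cells were given the platinum drug carboplatin at 25 µM from 1 h before priming. Medium was removed only after the 24 h of priming, so the drug was present during priming.

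The libraries held 6869667 to 14708099 counted read pairs (median 8986463). A normalized count is a gene's count brought to the average TMM-scaled library size, so that 1 normalized count stands for 0.740 to 1.45 counted read pairs. The 7 macrophage markers examined (Adgre1, Csf1r, Cd68, Lyz2, Mertk, Fcgr1 and Itgam) were counted in every library, with a summed level of 12210 to 30440 CPM. Of 6 T and NK cell genes 5 were at 0 in all 18 libraries, among them Cd3e and Cd8a, while Cd4 reached 1.41 CPM. Of 6 B cell genes only Pax5 was at 0 throughout, and Cd79b reached 1.66 CPM. Of 6 mast cell and basophil genes 5 were at 0 in all libraries, and Kit reached 4.31 CPM, with a level of 1.15 to 4.31 CPM in Unstim cells, 0.847 to 1.41 in LPS10Control cells and at most 0.221 in the primed and tolerant groups. All 5 dendritic cell genes had counts in some library, with a summed level of at most 1.27 CPM.

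Proteins of the BCL2 family decide whether the outer membrane of the mitochondrion stays intact. The survival members BCL2, BCL-XL (Bcl2l1), MCL1 and A1 (the Bcl2a1 genes) hold the effectors BAK and BAX in check, and BH3-only proteins such as BIM (Bcl2l11), BMF and BID release that check or activate the effectors directly. In macrophages LPS is sensed by TLR4, and A1 is known as a target of NF-κB that myeloid cells induce on activation, whereas BCL2 itself is better known from lymphocytes. Mouse A1 exists as several near-identical gene copies, so short reads can be hard to assign to one of them.

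The 3 A1 copies lie close together on chromosome 9 (GRCm39), Bcl2a1d at chr9:88605338-88613967 on the minus strand, Bcl2a1a at chr9:88838953-88844472 and Bcl2a1b at chr9:89081262-89089889, both on the plus strand. Each has 2 exons and 516 coding bases. Bcl2a1a and Bcl2a1b differed at 11 of these bases (97.87% identity), Bcl2a1a and Bcl2a1d at 7 (98.64%) and Bcl2a1b and Bcl2a1d at 6 (98.84%). The first 150 coding bases hold 7 of the 12 coding positions at which any copy differs. They are shown because these few letters are part of what separates the reads of the copies, and the capitals mark the differing positions. Differences outside the coding bases were not counted here. The stretches lie at chr9:88839104-88839253 (plus strand), chr9:89081413-89081562 (plus strand) and chr9:88613623-88613772 (minus strand) of GRCm39.
Bcl2a1a: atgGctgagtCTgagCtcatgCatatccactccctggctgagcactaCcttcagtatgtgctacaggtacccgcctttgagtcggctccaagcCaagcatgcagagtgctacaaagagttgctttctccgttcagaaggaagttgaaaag
Bcl2a1b: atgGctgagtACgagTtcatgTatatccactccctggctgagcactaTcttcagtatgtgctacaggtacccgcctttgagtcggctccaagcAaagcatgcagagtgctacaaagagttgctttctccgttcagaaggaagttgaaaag
Bcl2a1d: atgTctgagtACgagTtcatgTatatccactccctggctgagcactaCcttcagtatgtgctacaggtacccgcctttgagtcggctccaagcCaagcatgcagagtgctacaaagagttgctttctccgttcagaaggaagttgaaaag

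Of all windows of 150 bases in the transcripts, 71.8% of those of Bcl2a1a, 58.3% of those of Bcl2a1b and 69.5% of those of Bcl2a1d were found in no other gene. Reads from windows that the copies share can align to more than 1 copy, and HTSeq sets such reads aside by default. Counts of the single copies are therefore uncertain, and the summed count of the 3 copies is given beside them. The copies are also not independent of each other, so they are not 3 separate results where called genes are counted. Bcl2a1b also overlaps the annotated gene Gm29094 on the same strand, for which the count files hold no row. Windows shared with Gm29094 were not counted as unique, and the mate of a read was not considered. The shares of windows therefore do not give the share of reads that was set aside.

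The windows of 250 bases before the start sites are shown next because all 3 copies rose in the comparisons of LPS with no LPS that follow. They come from RefSeq on GRCm38.p6, at chr9:88956670-88956919 (plus strand) for Bcl2a1a, chr9:89199023-89199272 (plus strand) for Bcl2a1b and chr9:88731851-88732100 (minus strand) for Bcl2a1d. Capitals mark matches to TGANTCA, the AP-1 letters, and to GAGGAAGT, a sequence of the kind bound by PU.1, searched on both strands.
Bcl2a1a: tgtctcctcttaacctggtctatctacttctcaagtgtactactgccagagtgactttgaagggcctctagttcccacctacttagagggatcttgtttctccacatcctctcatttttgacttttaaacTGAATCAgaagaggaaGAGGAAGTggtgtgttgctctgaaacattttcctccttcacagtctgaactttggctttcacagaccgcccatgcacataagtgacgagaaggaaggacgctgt
Bcl2a1b: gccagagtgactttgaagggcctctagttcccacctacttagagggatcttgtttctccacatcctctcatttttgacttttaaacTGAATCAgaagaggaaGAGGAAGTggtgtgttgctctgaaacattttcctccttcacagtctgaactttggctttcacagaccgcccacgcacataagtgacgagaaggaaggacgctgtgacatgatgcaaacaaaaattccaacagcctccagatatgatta
Bcl2a1d: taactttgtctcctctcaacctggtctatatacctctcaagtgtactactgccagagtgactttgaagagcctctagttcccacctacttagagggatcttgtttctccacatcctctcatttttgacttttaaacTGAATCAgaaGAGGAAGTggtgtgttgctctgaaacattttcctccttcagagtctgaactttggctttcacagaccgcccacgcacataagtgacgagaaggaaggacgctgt

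Each of the 3 windows held 1 match to TGANTCA and 1 match to GAGGAAGT, which did not overlap. The former was found in 6.75% and the latter in 2.44% of 32851 promoter windows of the same length. No window of the other 7 genes held TGANTCA, and Bak1 alone among them held GAGGAAGT. The loose NF-κB letters GGGNNNNNCC, found in 45.8% of all windows, were in none of the 3 A1 windows. These letters were chosen after the A1 windows had been read, and a match is a description of the sequence.

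Per kilobase of transcript, Mcl1 and Bcl2a1b had the highest levels of the 10 genes and Bcl2 and Bmf the lowest in the 5 groups given LPS, but not in Unstim cells. In Unstim cells Mcl1 stood at 1190 ± 106 normalized counts per kb (SD, n = 3), ahead of Bak1 at 266.5 ± 58.2, Bcl2a1b at 248 ± 121, Bid at 142 ± 33.2 and Bcl2l1 at 132 ± 65.4. Bcl2l11 followed at 49.95 ± 20.2, Bcl2a1d at 23.6 ± 4.34 and Bmf at 10.3 ± 5.62, while Bcl2a1a (1.06 ± 1.005) and Bcl2 (0.419 ± 0.340) were close to the limit of counting. After the single exposure to LPS the order changed, with Bcl2a1b at 3208 ± 212, Mcl1 at 1979 ± 437, Bcl2a1d at 1931 ± 134 and Bcl2l11 at 203 ± 22.6. In Tol cells Mcl1 was again the highest, at 2423 ± 118, and Bcl2a1b stood at 1277 ± 477.

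**Figure D1:**
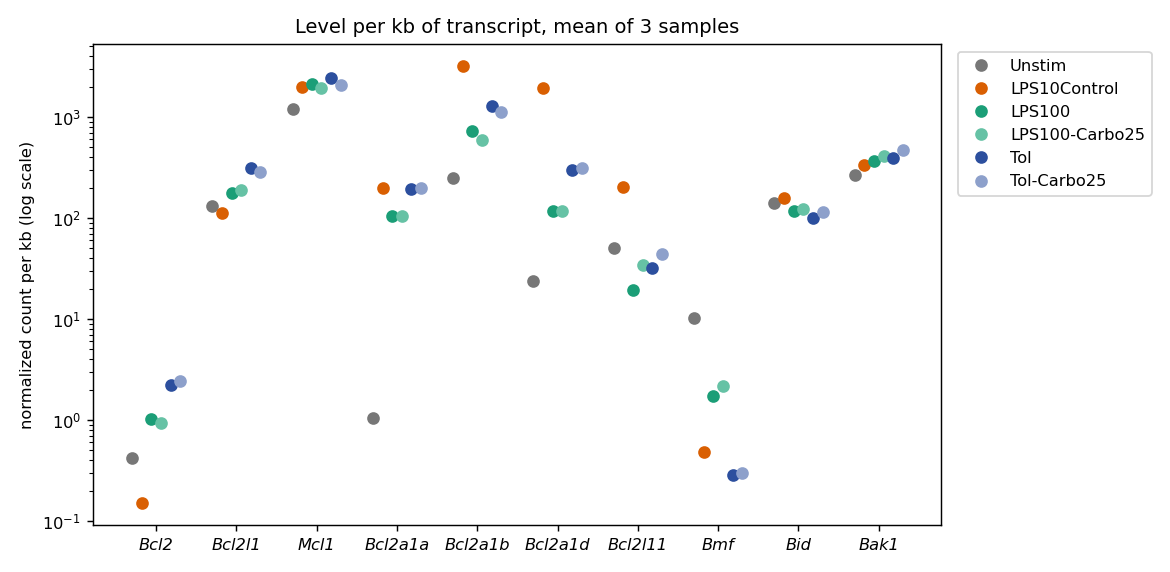
Level of each gene in normalized counts per kb of transcript (vertical axis, log scale), each point the mean of 3 samples of 1 of the 6 groups (colour). Mcl1 lies between 1190 and 2423 in all groups, Bcl2a1a spreads from 1.06 to 197 and Bcl2a1d from 23.6 to 1931, and Bcl2 is at 2.44 or less in every group.

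The single exposure to LPS was compared with no LPS to describe the first response of naive macrophages. All 3 A1 copies, Mcl1 and the BH3-only gene Bcl2l11 rose, and Bmf, another BH3-only gene, fell. Of the 10 genes, 5 were called higher, against 24.3% of all genes tested, and 1 was called lower, against 26.9% (edgeR, adjusted p under 0.05). With an absolute log2FC above 2 as a further limit, 5 genes were called, against 12% of all genes. Both numbers of 5 include the 3 A1 copies, which are not independent of each other.

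Bcl2a1b, the most abundant copy, had 199.8, 307 and 107 normalized counts in the Unstim samples and 2700.1, 2794 and 2455 in the LPS10Control samples. Its lowest LPS10Control sample was far above its highest Unstim sample, and the log2FC was 3.69 (SE 0.42, adjusted p = 1.94e-06). Bcl2a1d went from 21.0, 23.8 and 16.4 normalized counts to 1754, 1710.3 and 1536, a log2FC of 6.34 (SE 0.46, adjusted p = 1.12e-08). Bcl2a1a had raw counts of 1, 2 and 0 in the Unstim samples and 116, 244 and 179 in the LPS10Control samples. With only 3 counts in the Unstim group, the ratio of summed counts per library size was 183, with an exact interval of 62.4 to 892 that covers counting error alone (adjusted p = 4.56e-08). The sum of the 3 copies rose from 226 ± 104 to 4478 ± 272 normalized counts (SD, n = 3), with a log2FC of 4.31 (SE 0.42, adjusted p = 3.05e-07). The summed level of 8 neutrophil markers moved with this exposure too, without overlap, from 0.781 to 1.41 CPM in Unstim cells to 4.39 to 12.9 CPM in LPS10Control cells. S100a8 made up most of this, since no other marker of the list exceeded 1.38 CPM in any of the 18 libraries. Of the 8 markers, Ly6g, Mpo and Retnlg were at 0 in all of them, and the other 5 had counts in some library. Fewer cells of a type and less RNA per cell cannot be told apart in such bulk samples.

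Mcl1, which encodes a short-lived survival protein, had 3737, 4436 and 4295 normalized counts without LPS and 5182, 7476 and 8068 after the single exposure. The groups did not overlap, and the log2FC was 0.73 (SE 0.15, adjusted p = 0.000839). Bcl2l1, which encodes BCL-XL, spread widely within both groups, with 632, 450.0 and 206 normalized counts against 638, 248 and 207, and did not pass the test (log2FC -0.24, SE 0.39, adjusted p = 0.628). Without LPS10Control replicate 1, its highest sample, the log2FC of Bcl2l1 was -0.91 and the adjusted p 0.0437. Bcl2 had between 0 and 6 counts in these 6 libraries, and a change in either direction was not detectable at this depth (ratio 0.408, exact counting interval 0.0935 to 1.42).

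Among the genes of the death arm, Bcl2l11 rose and Bmf fell. Bcl2l11 encodes BIM, a BH3-only protein that binds all survival members. It had 137, 329 and 289.9 normalized counts in Unstim cells and 897, 1119 and 1052 in LPS10Control cells. The groups were well apart, and the log2FC was 2.02 (SE 0.33, adjusted p = 7.98e-05). Bmf had 18.2, 58.2 and 67.3 normalized counts without LPS, and raw counts of 5, 1 and 0 after the exposure. The groups did not overlap, and Bmf fell by 4.56 on the log2 scale (SE 0.89, adjusted p = 0.000410). This size rests on 6 counts after the exposure, and it ranged from -6.52 without LPS10Control replicate 1 to -4.00 without LPS10Control replicate 3, with the call kept in each fit that left out 1 sample. Bid, whose protein links death receptors to mitochondria, showed no difference past the threshold (log2FC 0.16, SE 0.24, adjusted p = 0.595). Bak1 had a log2FC of 0.34 (SE 0.16, adjusted p = 0.0738), which passed with the replicate number as a block (adjusted p = 0.0199), with DESeq2 (adjusted p = 0.0474) and without Unstim replicate 1 (adjusted p = 0.00679). Apart from fits that left out 1 sample, the alternatives put this log2FC between 0.0094 and 0.41, with an adjusted p of up to 0.961.

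**Figure D2:**
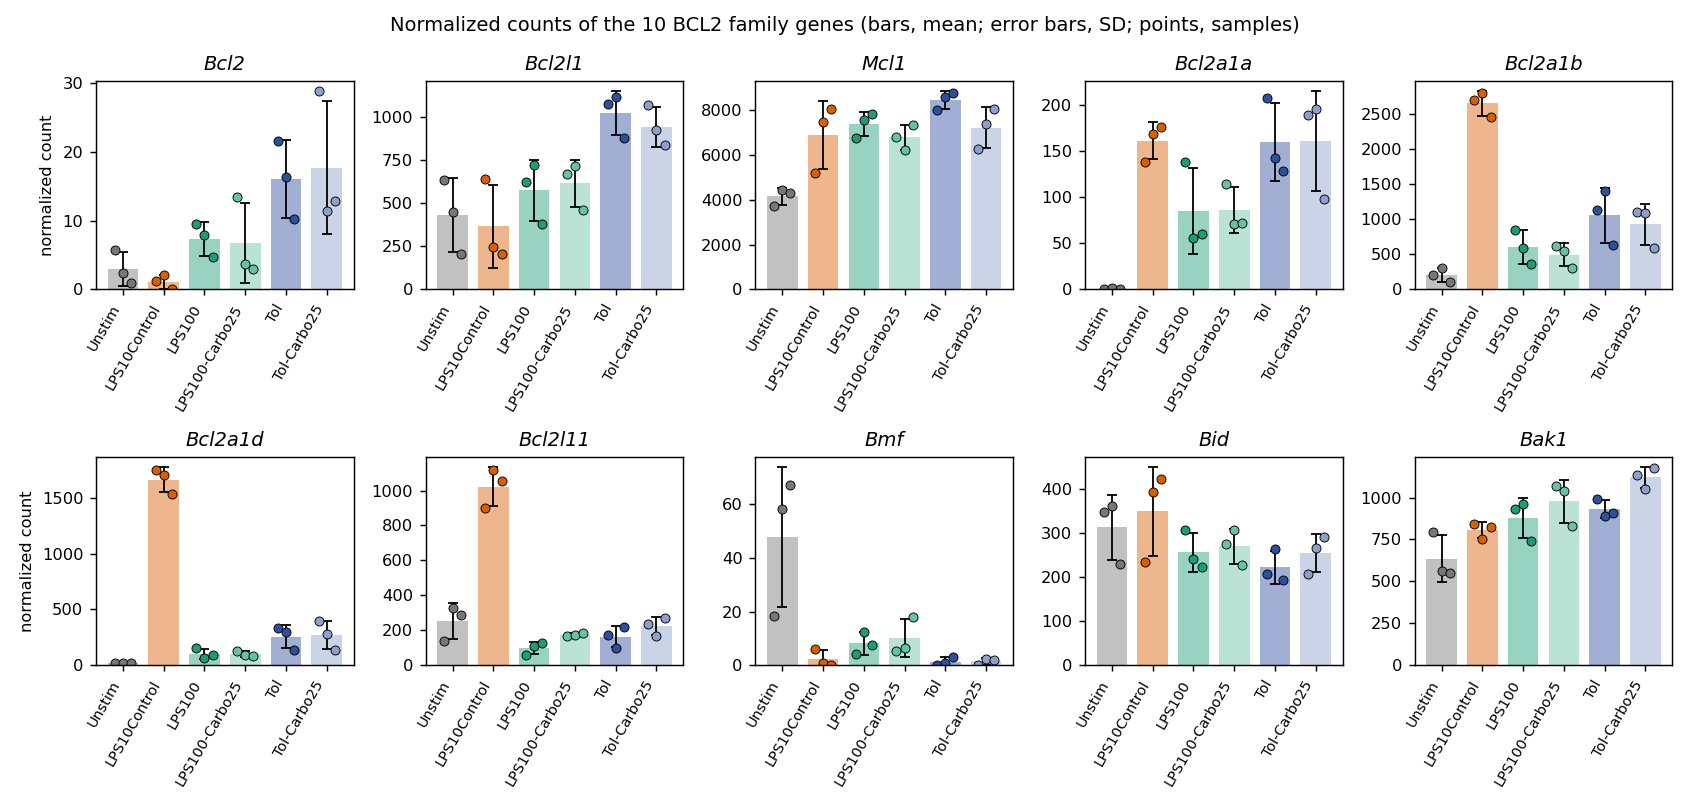
Normalized counts of the 10 genes (vertical axes, linear from 0) in the 6 groups, with bars for the mean, error bars for the SD and points for the 3 samples of each group. Bcl2a1b, Bcl2a1d and Bcl2l11 peak in the LPS10Control samples, Bcl2 and Bcl2l1 are highest in the tolerant groups, and Bmf is highest in Unstim cells.

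Priming with the higher dose for 24 h was compared with no LPS to describe the state in which the cells met the second exposure. The A1 copies, Mcl1 and Bak1 were higher than in Unstim cells, and both Bcl2l11 and Bmf were lower. In this comparison 5 genes were called higher, against 12.1% of all genes, and 2 lower, against 13.1%, and 3 passed with an absolute log2FC above 2, against 7.47%. The genes called higher include the A1 copies, which are not independent of each other. Bcl2l11 thus stood above the Unstim level after 3 h of the lower dose and below it after 24 h of the higher dose. These groups differ in both dose and time.

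Bcl2a1b had 847, 591 and 363 normalized counts in the LPS100 samples, a log2FC of 1.55 over Unstim (SE 0.40, adjusted p = 0.00758). For Bcl2a1d the samples stood at 153, 61.5 and 91.0, a log2FC of 2.31 (SE 0.43, adjusted p = 0.000698). All LPS100 samples were above all Unstim samples for both copies. Bcl2a1a had raw counts of 131, 49 and 64, and the ratio to Unstim was 94.8 with an exact counting interval of 32.1 to 463 (adjusted p = 7.93e-07). The summed A1 level was 787 ± 320 normalized counts (SD, n = 3), with a log2FC of 1.80 (SE 0.38, adjusted p = 0.00198). Beside these genes, the summed level of the neutrophil markers was 9.06 to 47.1 CPM in LPS100 cells, again mostly S100a8 and again above all Unstim samples.

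Mcl1 had 6772, 7557 and 7827 normalized counts in LPS100 cells. All were above the Unstim samples, and the log2FC was 0.83 (SE 0.16, adjusted p = 0.000700). Bcl2l11 had 57.2, 112 and 126, all below the Unstim samples, and fell by 1.36 on the log2 scale (SE 0.34, adjusted p = 0.00631). Bmf, which is known to be held at the cytoskeleton in healthy cells, had 4.23, 12.5 and 7.50 and fell by 2.56 (SE 0.74, adjusted p = 0.0169). The call of Bmf was lost without Unstim replicate 2 or 3 or without LPS100 replicate 1 or 3 (adjusted p up to 0.0742).

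Bak1, which encodes one of the proteins that open the mitochondrial membrane, had 796, 562 and 549.9 normalized counts in Unstim cells and 930.3, 960.4 and 743 in LPS100 cells. The groups overlapped, and the log2FC was 0.46 (SE 0.16, adjusted p = 0.0356). This call was lost without Unstim replicate 2 or 3, without LPS100 replicate 1 or 2 (adjusted p up to 0.127), and with library size alone as the scaling (log2FC 0.23, adjusted p = 0.266). It was lost as well without the filter (adjusted p = 0.0530) and in a fit of these 2 groups alone (adjusted p = 0.108). Bcl2l1 (log2FC 0.42, SE 0.39, adjusted p = 0.490), Bcl2 (log2FC 1.26, SE 0.76, adjusted p = 0.258) and Bid (log2FC -0.29, SE 0.24, adjusted p = 0.428) did not pass the test.

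**Figure D3:**
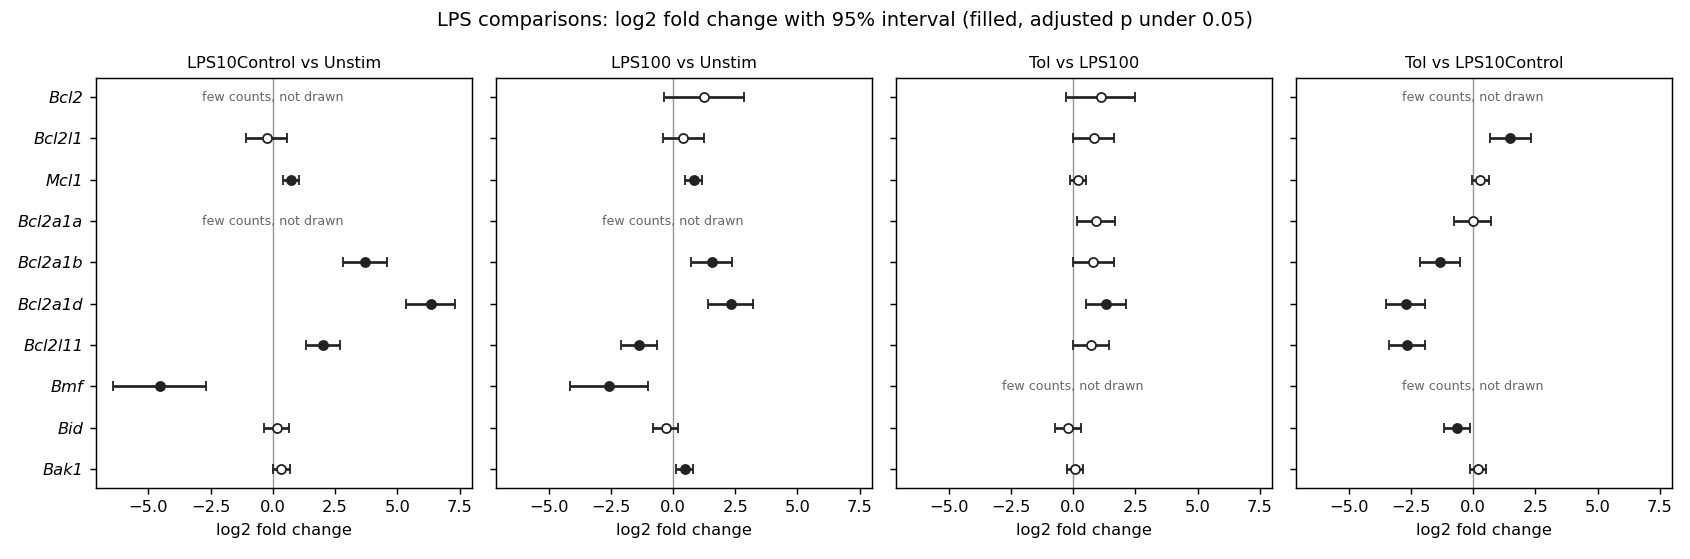
The log2FC of each gene (horizontal axis) with its 95% interval from the fit of all samples in the 4 LPS comparisons, filled where the adjusted p was under 0.05 and left out where a group held almost no counts. Bcl2a1d is at 6.34 for the single exposure and at 1.32 for the second exposure, and Bcl2l11 is at 2.02 for the former and 0.72 for the latter.

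The second exposure was examined by comparing Tol with LPS100 cells, which differ in the 3 h of LPS at 10 ng/ml in fresh medium. Bcl2a1d was the only one of the 10 genes called higher, against 3.6% of all genes, and 0 genes were called lower, against 2.71%. None passed the limit of an absolute log2FC above 2, against 0.681%. At an unadjusted p under 0.05 the test of edgeR gave 5 genes, of which Bmf was lower, against 21.1% of all genes, and DESeq2 called 1 gene and limma 0 at an adjusted p under 0.05.

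Bcl2a1d had 334, 294 and 137 normalized counts in Tol cells, overlapping the 3 LPS100 samples, and its log2FC was 1.32 (adjusted p = 0.0453, SE 0.37). This call was kept without LPS100 replicate 1, LPS100-Carbo25 replicate 1, Tol replicate 3, Tol-Carbo25 replicate 1 or 3, or LPS10Control replicate 1, and was lost without any of the other 12 samples (adjusted p up to 0.168). It was also lost with library size alone as the scaling (adjusted p = 0.0538), with limma (adjusted p = 0.0704) and in a fit of these 2 groups alone (adjusted p = 0.103). Bcl2a1b had 1132, 1405 and 628 normalized counts (log2FC 0.81, SE 0.38, adjusted p = 0.233), and Bcl2a1a had 208, 142 and 129 (log2FC 0.91, SE 0.36, adjusted p = 0.153). Both groups overlapped for each of these copies, although every Tol sample was above the LPS100 sample of the same replicate number. With the replicate number as a block, 4 genes were called higher, against 9.67% of all genes in that fit, namely Bcl2a1a (adjusted p = 0.0271), Bcl2a1b (adjusted p = 0.00910), Bcl2a1d (adjusted p = 0.00210) and Bcl2l1 (adjusted p = 0.0215). The summed A1 level of 1470 ± 506 normalized counts in Tol cells (SD, n = 3) was above LPS100 by a log2FC of 0.90 (SE 0.37), which had an adjusted p of 0.165, or 0.00484 with the block. Without LPS100 replicate 1, Bcl2a1a passed as well (adjusted p = 0.0286).

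Bcl2l1 had 1075, 1112 and 876 normalized counts in Tol cells and 624, 721 and 379 in LPS100 cells. The groups did not overlap, and the log2FC was 0.83 (SE 0.39, adjusted p = 0.233). Bcl2 had raw counts of 17, 19 and 10 against 9, 7 and 5, again without overlap, with a log2FC of 1.11 (SE 0.65, adjusted p = 0.361). Mcl1 reached 7996, 8589 and 8786.5 normalized counts, above every LPS100 sample but by little (log2FC 0.20, SE 0.15, adjusted p = 0.520). Bcl2l11 had 172, 97.6 and 216, within reach of the LPS100 samples (log2FC 0.72, SE 0.34, adjusted p = 0.237). Bmf had raw counts of 0, 1 and 3, and its ratio to LPS100 was 0.172 with an exact counting interval of 0.0433 to 0.504 (adjusted p = 0.183). Bid (log2FC -0.20, SE 0.24) and Bak1 (log2FC 0.08, SE 0.15) had adjusted p-values of 0.694 and 0.823.

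When the same short exposure was compared between primed and naive cells, Tol against LPS10Control, Bcl2 and Bcl2l1 were higher and Bcl2a1b, Bcl2a1d, Bcl2l11 and Bid were lower in Tol. Of the 10 genes, 2 were called higher, against 16.2% of all genes, and 4 lower, against 18.3%, and 3 passed with an absolute log2FC above 2, against 8.04%. The number called higher was near the share of all genes. Among the survival genes, Bcl2 and Bcl2l1 were called higher, Bcl2a1b and Bcl2a1d lower, and Bcl2a1a and Mcl1 had no call.

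Bcl2 had raw counts of 17, 19 and 10 in Tol cells and of 1, 3 and 0 in LPS10Control cells, a ratio of 12.99 with an exact counting interval of 4.74 to 49.7 (adjusted p = 0.00243). Bcl2l1 was higher in every Tol sample than in every LPS10Control sample, with a log2FC of 1.49 (SE 0.40, adjusted p = 0.00735), or 2.17 without LPS10Control replicate 1. Bcl2a1b fell by 1.33 on the log2 scale (SE 0.38, adjusted p = 0.0124), a call lost without Tol replicate 3 (adjusted p = 0.0647), and Bcl2a1d fell by 2.71 (SE 0.37, adjusted p = 2.98e-05). Neither copy overlapped between the groups. Bcl2a1a differed from both, with 159.6 ± 42.2 normalized counts in Tol cells and 161 ± 20.1 in LPS10Control cells (SD, n = 3), a log2FC of -0.02 with a 95% interval of -0.76 to 0.72. The sum of the copies fell by 1.61 (SE 0.37, adjusted p = 0.00275). For Mcl1 the log2FC was 0.29 (SE 0.15), and the adjusted p was 0.159, or 0.0278 with the block.

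Bcl2l11 stood at 172, 97.6 and 216 normalized counts in Tol cells, far below the 897 to 1119 of the LPS10Control samples, and fell by 2.66 on the log2 scale (SE 0.34, adjusted p = 1.43e-05). Bid had 208, 264 and 194 normalized counts against 233, 392 and 421, with groups that overlapped, and fell by 0.65 (SE 0.24, adjusted p = 0.0431). The call of Bid was kept without Unstim replicate 3, LPS100 replicate 1 or 3, LPS100-Carbo25 replicate 2, Tol replicate 2, Tol-Carbo25 replicate 1 or 3, or LPS10Control replicate 1, and was lost without any of the other 10 samples (adjusted p up to 0.174). It was also lost without the filter (adjusted p = 0.0522), with limma (adjusted p = 0.0535) and in a fit of these 2 groups alone (adjusted p = 0.0928). Bak1 was slightly above the LPS10Control samples in every Tol sample, with 991, 888 and 911 against 842, 756 and 824, but did not pass (log2FC 0.20, SE 0.15, adjusted p = 0.334). Bmf had 4 counts in all in the Tol libraries and 6 in the LPS10Control libraries, too few for a fold.

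Whether priming changed the response to the short exposure was tested directly, as the difference between the effect in primed cells (Tol against LPS100) and the effect in naive cells (LPS10Control against Unstim). All 3 A1 copies responded less after priming. They were the 3 genes called lower, against 13.3% of all genes, and 0 of the 10 were called higher, against 10.5%. As near-identical copies that share reads they are not 3 separate results, so their number cannot be weighed against that share. At an unadjusted p under 0.05 edgeR gave 5 of the 10 genes, against 34.1% of all genes, and DESeq2 called 5 at an adjusted p under 0.05. The block called 5 lower, against 19% of all genes in that fit, and 1 higher, against 17.2%. The difference in log2FC was -2.88 for Bcl2a1b (SE 0.55, adjusted p = 0.000955), -5.02 for Bcl2a1d (SE 0.57, adjusted p = 5.83e-06) and -3.41 for the sum of the copies (SE 0.53, adjusted p = 0.000150). Bcl2a1a also passed (adjusted p = 7.58e-06), with a size that rests on its 3 counts in the Unstim group. In each of the 3 replicate numbers the response of every copy was smaller in primed cells.

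The starting levels differed, since LPS100 cells already held 787 ± 320 normalized counts of summed A1 and Unstim cells 226 ± 104 (SD, n = 3). The end levels of the sum differed too, at 1470 ± 506 in Tol cells and 4478 ± 272 in LPS10Control cells. Those of Bcl2a1a alone were alike, at 159.6 ± 42.2 in Tol cells and 161 ± 20.1 in LPS10Control cells. Its starting levels were apart, at 84.8 ± 46.7 in LPS100 cells and 0.865 ± 0.823 in Unstim cells, the latter from 3 counts in all. For Bcl2l11 the difference was -1.30 (SE 0.47, adjusted p = 0.0525), and it passed with the block (adjusted p = 0.0140), DESeq2 (adjusted p = 0.0251), limma (adjusted p = 0.0437), RLE scaling (adjusted p = 0.0463) or no filter (adjusted p = 0.0414), and without Unstim replicate 2, LPS100 replicate 1 or Tol replicate 3 (adjusted p down to 0.0187). For Mcl1 it was -0.54 (SE 0.22), at an adjusted p of 0.0871, or 0.0132 with the block and 0.0412 with DESeq2, and for Bcl2l1 it was 1.07 (SE 0.55), at an adjusted p of 0.185, or 0.0190 with the block. Without LPS10Control replicate 1, Mcl1 (adjusted p = 0.0101) and Bcl2l1 (adjusted p = 0.0124) also passed. Apart from fits that left out 1 sample, the alternatives ranged from -1.42 to -1.07 for Bcl2l11 (adjusted p up to 0.105). They ranged from -0.56 to -0.30 for Mcl1 (adjusted p up to 0.353) and from 1.04 to 1.30 for Bcl2l1 (adjusted p up to 0.248). Bid (-0.36, SE 0.34), Bak1 (-0.26, SE 0.22) and Bcl2 (2.36, SE 1.17) had adjusted p-values of 0.483, 0.436 and 0.167, and that of Bmf was 0.385.

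The make-up of the A1 counts differed between the groups as well as their level. In Unstim cells Bcl2a1b gave 89.7% ± 2.81 of the summed A1 count (SD, n = 3), Bcl2a1d 9.96% ± 3.07 and Bcl2a1a 0.308% ± 0.269. After the single exposure Bcl2a1d gave 37.2% ± 0.853 and Bcl2a1b 59.2% ± 0.546, with Bcl2a1a at 3.62% ± 0.611. The shares of Bcl2a1d in the LPS10Control samples, 36.6% to 38.2%, lay above those of all other samples, of which the highest was 23.2%. In LPS100 cells the share of Bcl2a1a was 10.6% ± 2.35 and in Tol cells 11.5% ± 3.42, with a lowest value of 7.74% in Tol, above all LPS10Control samples (3.01% to 4.24%). In the carboplatin groups Bcl2a1b gave 71.7% ± 5.49 (LPS100-Carbo25) and 68.9% ± 2.99 (Tol-Carbo25), against 76.1% ± 6.59 in LPS100 and 71.4% ± 4.44 in Tol. These shares are of reads assigned to 1 copy, and no test was run on them.

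**Figure D4:**
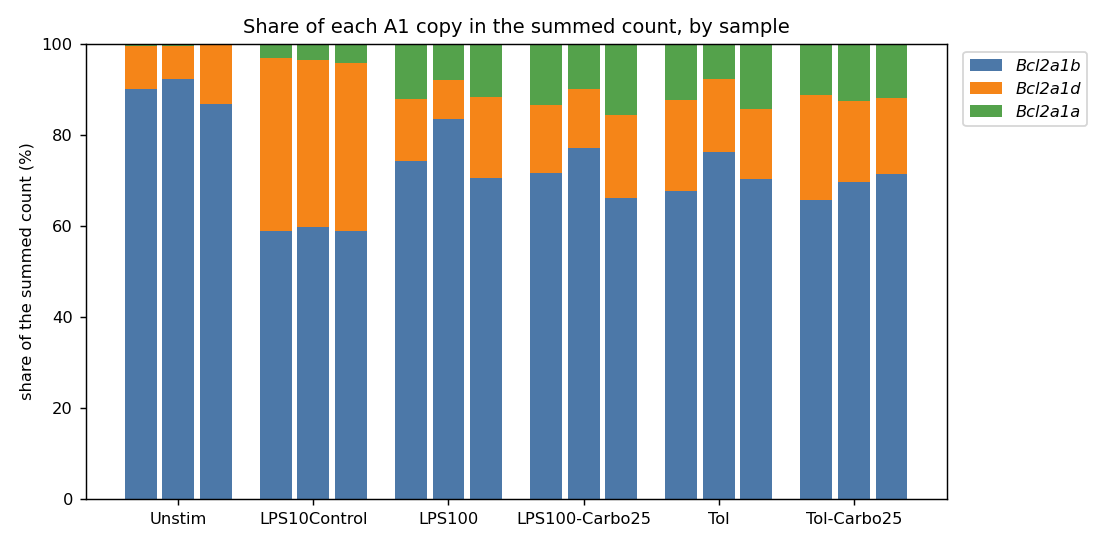
Share of Bcl2a1b, Bcl2a1d and Bcl2a1a in the summed count of the 3 copies (vertical axis, percent), 1 bar per sample, 3 samples per group. Bcl2a1d takes 36.6% to 38.2% in the LPS10Control samples and at most 23.2% elsewhere, and Bcl2a1a is almost absent from the Unstim samples.

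Carboplatin given from 1 h before priming was compared with no drug in primed and in tolerant cells. None of the 10 genes was called in either state. In primed cells 0 genes were called higher and 0 lower at an adjusted p under 0.05, against 0% and 0.372% of all genes, and 0 and 0 at an adjusted p under 0.25, the limit that the study used for carboplatin, against 0.0973% and 1.11%. In tolerant cells 0 and 0 were called at 0.05, against 0.0177% and 0.407%, and 0 and 0 at 0.25, against 0.239% and 1.42%. None passed 0.25 with an absolute log2FC above 2, against 0.265% of all genes in primed cells and 0.389% in tolerant cells. At an unadjusted p under 0.05 edgeR gave 1 of the 10 genes in primed cells, against 6.86% of all genes, and 0 in tolerant cells, against 6.73%. With the block these were 1, against 13.7%, and 2, against 12.4%. DESeq2 and limma called 0 at an adjusted p under 0.05 in both.

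Bcl2l11 was the gene with the unadjusted p under 0.05. It had 165, 175 and 182 normalized counts in LPS100-Carbo25 cells and 57.2, 112 and 126 in LPS100 cells. The groups did not overlap, and the log2FC was 0.82 with a 95% interval of 0.11 to 1.54 (SE 0.34, adjusted p = 0.583). With the replicate number as a block the adjusted p was 0.179, which is under the limit of 0.25, as it was for 2.71% of all genes in the same direction in that fit. In tolerant cells Bcl2l11 had 233, 166 and 269 against 172, 97.6 and 216, higher in 3 of 3 replicate numbers although the groups overlapped, with a log2FC of 0.47 and a 95% interval of -0.23 to 1.17 (SE 0.33, adjusted p = 0.963).

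Bak1 had 1134, 1052 and 1177 normalized counts in Tol-Carbo25 cells and 991, 888 and 911 in Tol cells, without overlap, and a log2FC of 0.27 with a 95% interval of -0.06 to 0.60 (SE 0.15, adjusted p = 0.867). In primed cells the interval for Bak1 was -0.17 to 0.48. Mcl1 was lower with the drug in 3 of 3 replicate numbers in tolerant cells (6264, 7398 and 8046 normalized counts), with a log2FC of -0.22 and an interval of -0.55 to 0.10 (SE 0.15, adjusted p = 0.957). In primed cells its log2FC was -0.12 with an interval of -0.44 to 0.21. The summed A1 copies had a log2FC of -0.21 in primed cells (interval -0.99 to 0.56) and -0.11 in tolerant cells (interval -0.88 to 0.66). For Bcl2l1 the intervals were -0.73 to 0.92 and -0.93 to 0.70, and for Bid -0.43 to 0.58 and -0.31 to 0.70. Bcl2, with few counts, had wide intervals of -1.70 to 1.31 and -1.16 to 1.42, and so had Bmf in primed cells (-1.34 to 2.02). Bmf had 4 counts in all in each of the tolerant groups.

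The difference between the carboplatin effects in tolerant and primed cells was also tested. Again 0 of the 10 genes were called higher and 0 lower, against 0% and 0% of all genes, and edgeR gave 0 of the 10 at an unadjusted p under 0.05, against 1.16%. DESeq2 and limma called 0 as well.

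**Figure D5:**
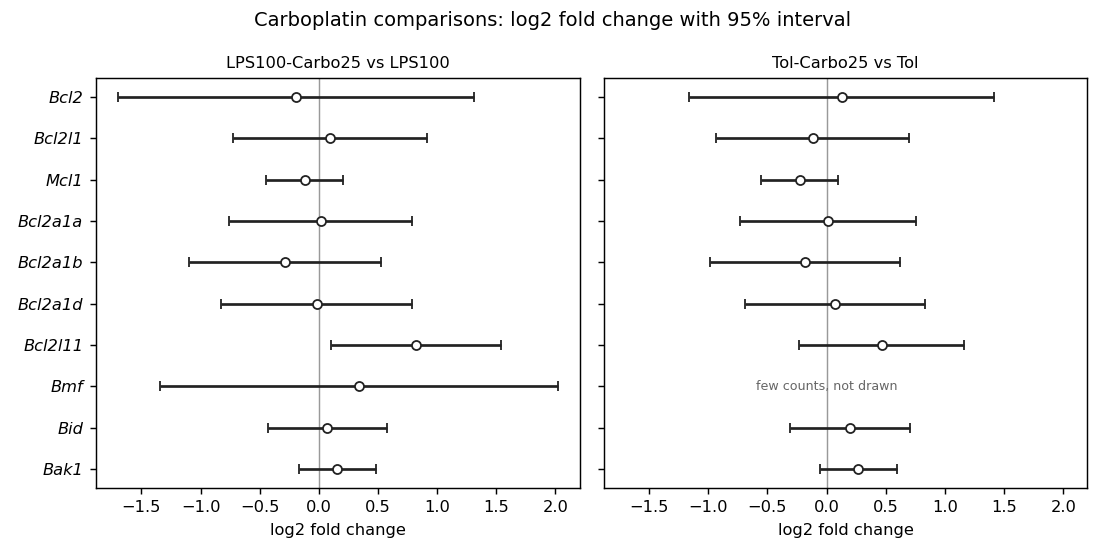
The log2FC of each gene for carboplatin (horizontal axis) with its 95% interval, in primed cells (left) and tolerant cells (right), where no gene had an adjusted p under 0.05. Only the interval of Bcl2l11 in primed cells, 0.11 to 1.54, leaves out 0.

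A further 3 lists place the 10 genes in their pathway. Of 14 other BCL2 family genes, 7 were expressed at a level that could be tested. After the single exposure 2 of the 7 were higher and 2 lower, near the 24.3% and 26.9% of all genes. Among them Bcl2l12 fell by 0.98 on the log2 scale (SE 0.23, adjusted p = 0.00198) while Bnip3 rose by 0.89 (SE 0.32, adjusted p = 0.0285). After priming 2 were higher, against 12.1% of all genes, namely Bnip3, a mitochondrial BH3-like gene known from hypoxia (log2FC 3.58, SE 0.34, adjusted p = 6.65e-07), and its relative Bnip3l with 1.19 (SE 0.22, adjusted p = 0.000658). Bnip3 went from 179 ± 32.6 normalized counts in Unstim to 2154 ± 364 in LPS100 cells (SD, n = 3). Between Tol and LPS10Control 3 were higher, against 16.2% of all genes, led by Bnip3 (log2FC 2.52, SE 0.33, adjusted p = 1.56e-05) and Bnip3l (log2FC 1.60, SE 0.22, adjusted p = 3.37e-05). The median log2FC of the 7 was 0.37 after priming, against -0.02 for all genes.

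All 17 genes of the caspase and apoptosome list were tested. The single exposure raised 6 and lowered 5, against 24.3% and 26.9% of all genes. Priming raised 3, against 12.1% of all genes (6 with the block, against 18.9%). The second exposure lowered 1, against 2.71% (5 with the block, against 8.32%, with 1 raised, against 9.67%). Between Tol and LPS10Control 6 were higher, against 16.2%, and 5 lower, against 18.3%. Cflar, which encodes the caspase-8 inhibitor c-FLIP, rose by 4.49 on the log2 scale with the single exposure (SE 0.56, adjusted p = 5.16e-06) and by 1.87 with priming (SE 0.51, adjusted p = 0.0122). Birc3, which encodes the inhibitor of apoptosis cIAP2, rose by 2.92 (SE 0.15, adjusted p = 2.14e-10) and 2.20 (SE 0.15, adjusted p = 1.07e-08) with the same exposures. It was the gene lowered by the second exposure (log2FC -0.54, SE 0.14, adjusted p = 0.0309). Between Tol and LPS10Control, Cflar fell by 2.14 (SE 0.50, adjusted p = 0.00317), and Casp9, the initiator caspase of the apoptosome, rose by 2.20 (SE 0.23, adjusted p = 1.27e-06), from 41.6 ± 7.65 to 190.6 ± 34.3 normalized counts (SD, n = 3). The median log2FC of this list was -0.13 for the single exposure and 0.12 for priming, against -0.09 and -0.02 for all genes.

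Of 10 partners and regulators of the family, all tested, the single exposure raised 3 and lowered 2, near the 24.3% and 26.9% of all genes. Priming raised 1, against 12.1% (2 with the block, against 18.9%, with 1 lowered, against 19.8%). Foxo3, a transcription factor known to drive Bcl2l11 in other settings, fell by 2.26 with the single exposure (SE 0.42, adjusted p = 0.000298), and Bag3, a co-chaperone that binds BCL2, rose by 1.43 (SE 0.17, adjusted p = 3.15e-06). The gene raised by priming was Dynll1, whose product is a light chain of dynein known to hold BIM (log2FC 0.59, SE 0.18, adjusted p = 0.0220). The second exposure gave 0 calls by edgeR, with 4 genes at an unadjusted p under 0.05, against 21.1% of all genes, and 3 higher with the block, against 9.67%. Between Tol and LPS10Control 3 were higher, against 16.2%, and 2 lower, against 18.3%, led by Foxo3 (log2FC 1.76, SE 0.42, adjusted p = 0.00364) and Bag3 (log2FC -1.28, SE 0.17, adjusted p = 2.11e-05). In both carboplatin comparisons 0 genes of the 3 lists were called at an adjusted p under 0.05, with 1 partner gene higher in each with the block, against 0.239% of all genes in primed and 0.336% in tolerant cells. At an unadjusted p under 0.05 edgeR gave 2 genes of the lists in each, against 6.86% and 6.73% of all genes.

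The pattern of each gene over the 18 samples was set beside those of 11304 other tested genes by Pearson's r on the log2 CPM scale, as a description. The samples share their group and their library, so these values mostly reflect the group means. Bcl2a1d was most like Tnip1 (0.97), Tnfaip3 (0.97) and Olr1 (0.97), the first 2 of which encode restraints on NF-κB signalling. Bcl2a1b was most like its own copy Bcl2a1d (0.96), then Cd82 (0.94) and P2ry2 (0.94), and Bcl2a1a was most like the chemokine gene Cxcl2 (0.98), the prostaglandin synthase gene Ptges (0.98) and Tarm1 (0.97). For Mcl1 these genes were Dst, Tapt1 and Atp2a2 (0.93 to 0.94), for Bcl2l11 Mamld1, Vezf1 and Rdh10 (0.92 to 0.93), and for Bmf Arhgef6, Otulinl and Abhd15 (0.93 to 0.95). Bcl2 and Bcl2l1 both had Cndp2 (0.92 and 0.91) among their 3, beside Coq7 and Tpcn2 for the former and Fastkd3 and Calm3 for the latter. The genes nearest to Bak1 were Smg5, Psmd3 and Ctsz (0.92 to 0.93), while Bid had no close match, with Akt2 at 0.74, Slc20a2 at 0.71 and H2-Aa at 0.71.

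Within the family, Bcl2 and Bcl2l1 varied together over the 18 samples (r = 0.86), and so did the A1 copies (0.79 to 0.96). Bmf ran against the A1 copies (-0.87 to -0.80), and Bcl2l11 ran against Bcl2 (-0.62) and Bcl2l1 (-0.55). These values have no test and rest on 6 groups.

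The other genes lie apart on the genome (GRCm39). Bcl2 is at chr1:106465908-106642060, Bcl2l1 at chr2:152622582-152673655, Bcl2l11 at chr2:127967958-128004476, Bmf at chr2:118359238-118380177, Mcl1 at chr3:95566026-95570487, Bid at chr6:120862525-120894171 and Bak1 at chr17:27238784-27247983. Exons of Bid overlap those of Bcl2l13 on the opposite strand (96 to 276 counts per library), and exons of Bak1 overlap those of Ggnbp1 (1 to 22 counts). The strand setting of the counting was not given in the sources used here, so reads of these pairs may not have been told apart.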

How the data were processed

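RNA-Seq of 18 BMDM samples was analysed from the gene counts that the authors deposited. Per the labels and the study's methods, libraries were made with a TruSeq kit, and the authors aligned reads to GRCm39 with HISAT2 and made raw counts per gene with HTSeq, without normalization. Program versions, annotation and strand option are not given in the sources used here. HTSeq had set aside 4.21 to 5.18% of read pairs as aligned to several places, 26.5 to 33.1% as outside genes and 0.103 to 0.286% as ambiguous, and such reads were left out of library sizes. Depth was 6869667 to 14708099 counted pairs per sample.

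Groups were taken from the sample titles. Genes were filtered with filterByExpr (minimum count 10, minimum total 15) and tested with the quasi-likelihood method of edgeR 4.0.16 in R 4.3.3, fitting group means over the 18 samples with TMM scaling and a prior count of 0.125. The SE is the absolute log2FC over the square root of F, and intervals are 95% from the t distribution. The p-values were adjusted by the Benjamini-Hochberg method over the 11305 genes tested. Where every library of a group held at most 3 counts, ratios of summed counts with exact Clopper-Pearson intervals were used in place of the fitted fold. Alternatives were DESeq2 1.42.0, limma 3.58.1 (voom), other scalings, no filter, fewer samples, a replicate block, a prior count of 2, the A1 copies summed, and leaving out each sample. The procedure was tested on simulated data with known changes between LPS100 and Unstim, on which DESeq2 made more false calls than edgeR and limma. The simulation left genes of low counts unchanged and held no effect of the replicate number and no difference of responses. It therefore does not bear on those cases.

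Samples of the same replicate number deviated together from their group means in every comparison (r of 0.183 to 0.574 for the single pairs), so the numbers may pair the samples. What the numbers stand for is not stated in the sources used here. The methods name no shared batch, and the main fit has no block. Levels per kb used the canonical transcript of GENCODE vM39, where longest transcripts had been planned. Promoters came from RefSeq (GRCm38.p6), with windows for all 10 genes. The 10 genes, the 3 pathway lists and the marker lists were chosen with earlier results of these data known. From each pathway list the 2 called genes with the largest absolute log2FC per comparison are named, and for each family gene the 3 genes with the highest Pearson r.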

Additional observations from a re-analysis of the deposited data

Results flagged for a closer look

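The response to LPS at 10 ng/ml differed between primed and naive cells for 3 genes by the test of the difference itself. The adjusted p of this difference was 7.58e-06 for Bcl2a1a, 0.000955 for Bcl2a1b and 5.83e-06 for Bcl2a1d, with the smaller response in primed cells for each. For Bcl2a1a the level after the exposure was alike in primed and naive cells, and only the starting level differed. The 3 copies share part of their reads and are not independent of each other. Groups of 3 samples are too small for the check for single outlying samples.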

How the results depend on the processing

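A replicate block raised the number of the 10 genes called from 1 to 4 for Tol against LPS100 and from 3 to 6 for the difference between the responses of primed and naive cells (5 with DESeq2), while over all genes it raised the calls from 713 to 2034 and from 2691 to 4091. The summed A1 copies passed with the block for Tol against LPS100 (log2FC 0.89, adjusted p = 0.00484). For Tol against LPS100, 0 genes were called with library size alone as the scaling, with limma or with only the samples of the groups compared. Leaving out 1 sample gave 0 to 2 calls in that comparison and 3 to 5 for the difference of responses. The counts of the other comparisons stayed within 1.5 times.

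Signs turned only for values that had not passed the test. With library size alone the log2FC was -0.18 for Bid in LPS10Control against Unstim, -0.017 for Bak1 in Tol against LPS100 and 0.0042 for Bcl2a1d with carboplatin in primed cells. With limma, Bcl2a1d was at 0.031 in the latter and Bcl2a1a at -0.038 with carboplatin in tolerant cells. The summed copies gave -0.21 in primed cells, where Bcl2a1a alone of the copies was above 0, and -0.11 in tolerant cells, where Bcl2a1a and Bcl2a1d were. Over fits that left out 1 sample, Bcl2l1 ranged from -0.91 to 0.16 in LPS10Control against Unstim, Bak1 from -0.024 to 0.15 in Tol against LPS100, and Bcl2a1a from -0.25 to 0.11 in Tol against LPS10Control. For carboplatin in primed cells the ranges were -1.08 to 0.17 for Bcl2, -0.13 to 0.29 for Bcl2l1, -0.24 to 0.56 for Bcl2a1a, -0.55 to 0.045 for Bcl2a1b, -0.28 to 0.39 for Bcl2a1d, -0.030 to 0.22 for Bid, -0.40 to 0.77 for Bmf and -0.44 to 0.15 for the summed copies. In tolerant cells they were -0.39 to 0.38 for Bcl2, -0.16 to 0.27 for Bcl2a1a, -0.45 to 0.080 for Bcl2a1b, -0.30 to 0.39 for Bcl2a1d and -0.37 to 0.15 for the summed copies, whose difference between the states ranged from -0.27 to 0.36. The cause was not tested.

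Scaling by library size alone moved the median log2FC of all genes to -0.26 for LPS100 and -0.43 for LPS10Control against Unstim. Depth limits Bcl2 and Bmf, which had at most 22 counts in any library after LPS. Reads shared by the A1 copies were not recovered.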
